A study of Rattus norvegicus with 12 samples.

Results

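The genes described here were listed as the activator arm of the circadian clock and clock genes grouped with Bmal1: Bmal1, Clock, Npas2, Nfil3, Cry1, Cry2 and Rora. The whole list is called the activator arm below, although Nfil3, Cry1 and Cry2 encode repressors. Whether their transcripts cycle together was not tested. The 7 genes were chosen by name, and every non-control array probe whose RefSeq accession mapped to any of them was taken. This gave 9 probes for 6 of the 7 genes, out of 30367 probes on the array and 20426 features tested: Bmal1, Clock and Npas2 had 2 probes each, and Nfil3, Cry1 and Cry2 had 1 each. No probe accession mapped to Rora, which was not analysed here. All 9 probes were well above background on all 12 arrays, so the filter on dim probes removed none of them.

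Male rats of the Fischer 344 strain gave the RNA, which was taken from the bladder body. Each of the 12 animals had a 1-colour array of its own, 4 animals formed each of 3 groups, and no genotype or drug treatment is named in the labels. Old restricted rats were 25 to 28 months of age and had been given food on only 3 days a week since 6 weeks of age, with an intake about 40% below that of freely fed old rats. Old freely fed rats were 25 to 28 months of age and ate ad libitum. Young rats were 6 months of age and also ate ad libitum. All animals lived under 12 hours of light and 12 hours of darkness. The time of day at which tissue was taken, and the time since the last meal, are not given in the sources used here. The title of the series asks about changes of the bladder with age and about their prevention by restriction.

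In mammalian cells BMAL1 pairs with CLOCK or its close relative NPAS2, and the pair binds E-box sequences and switches on the Per, Cry, Nr1d1, Nr1d2, Dbp and Tef genes. PER and CRY proteins then inhibit the pair. REV-ERB proteins, encoded by Nr1d1 and Nr1d2, repress Bmal1, Npas2, Nfil3 and Cry1, and ROR proteins such as RORA activate the same genes, so that Bmal1 transcripts are high at the time of day when Nr1d1 and Dbp transcripts are low. NFIL3 is a repressor at D-box sequences, where DBP and TEF are activators. Clocks of this kind run in most peripheral tissues, the bladder included, and meals are known to shift them in the liver and other organs.

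A level here is a log2 signal after subtraction of the log2 75th percentile of its array, so 0 is the signal at that percentile. Differences are log2 changes from a limma fit over all 12 arrays, with Benjamini-Hochberg adjustment over the 20426 features and a threshold of 0.05. Arrays of 1 group correlated at r = 0.985 to 0.997 over features. On the first principal component old freely fed replicate 2 had a score of 51.9, and the remaining arrays had scores of -29.1 to 19.0. Markers of smooth muscle and urothelium, which define the bladder wall, were well above background, with 6 of 6 measured for each. The arrays of restricted animals lay on a slide and in a scan of their own, while both freely fed groups shared another slide and scan, so slide and restriction cannot be told apart. The young animals filled one row of the shared slide and the old freely fed animals the other, so row and age cannot be told apart.

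Restriction was compared with free feeding in old animals first. Bmal1, Npas2 and Nfil3 were lower in restricted animals, by 3.31-fold, 1.78-fold and 1.90-fold. Clock, Cry1 and Cry2 did not pass the test. Of the 6 genes, 3 fell and 0 rose, where 2.02% of all features fell and 1.62% rose. The 4 restricted animals lay wholly below the 4 old freely fed animals for 4 of the 6 genes, while the groups did not overlap, in either direction, for 14.7% of all features. The median log2 change of the 6 genes was -0.52, and that of all features was 0.02. In bulk tissue, fewer cells of a type and less RNA per cell cannot be told apart.

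Bmal1, whose protein pairs with CLOCK or NPAS2, had levels of -1.42, -1.39, -2.33 and -2.52 in the 4 restricted animals. The levels were -0.42, -0.11, 0.02 and -0.24 in the 4 old freely fed animals, and 0.33, -0.03, -0.26 and -0.33 in the 4 young animals. Every restricted animal was below every freely fed animal of either age, and both freely fed groups covered much the same range. The level averaged -1.92 ± 0.59 in restricted, -0.19 ± 0.19 in old freely fed and -0.08 ± 0.30 in young animals (SD, n = 4 each). The log2 change with restriction was -1.73 (SE 0.25, 95% interval -2.27 to -1.18, limma adjusted p = 0.00508), the 48th lowest of the 20426 features. The dimmer of the 2 Bmal1 probes, on its own scale, read -3.74, -3.68, -4.72 and -4.66 in restricted animals, -2.84, -2.53, -2.26 and -2.59 in old freely fed animals, and -1.97, -2.19, -2.44 and -2.61 in young animals. Its groups separated in the same way, with a log2 change of -1.64 with restriction (limma adjusted p = 0.00674 in a fit over all probes).

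The window around the start of Bmal1 is shown because REV-ERB and ROR proteins are known to act there. It comes from the RefSeq annotation of GRCr8, chr1:176766078-176766377 on the plus strand, from 250 bases before the transcript start to 50 after it. Capitals mark TAGGTCA, a core of the element that REV-ERB and ROR proteins bind.
Bmal1: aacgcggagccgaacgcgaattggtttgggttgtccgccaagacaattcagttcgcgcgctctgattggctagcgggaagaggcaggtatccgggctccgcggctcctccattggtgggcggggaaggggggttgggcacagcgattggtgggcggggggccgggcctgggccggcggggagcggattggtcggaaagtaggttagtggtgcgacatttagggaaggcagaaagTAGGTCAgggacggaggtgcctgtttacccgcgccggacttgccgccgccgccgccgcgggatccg
The match lies 16 to 10 bases before the start. Both strands of 33469 RefSeq windows of this length were searched for TAGGTCA or TGGGTCA (the same core), for the E-box CACGTG, and for the D-box spellings TTATGTAA and TTACGTAA. TAGGTCA occurred in 2.63% of windows, either core spelling in 6.6%, the E-box in 6.42% and a D-box spelling in 1.01%. The 6 members with a window had 7 windows in all, and the Bmal1 window was the 1 with a match to any of these letters. The share of all windows with a match to any of them was not computed, so such counts, here and below, have no share beside them. Clock (2 windows), Npas2, Nfil3, Cry2 and Rora had no match in theirs, which says only that these letters are not in those windows.

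**Figure D1:**
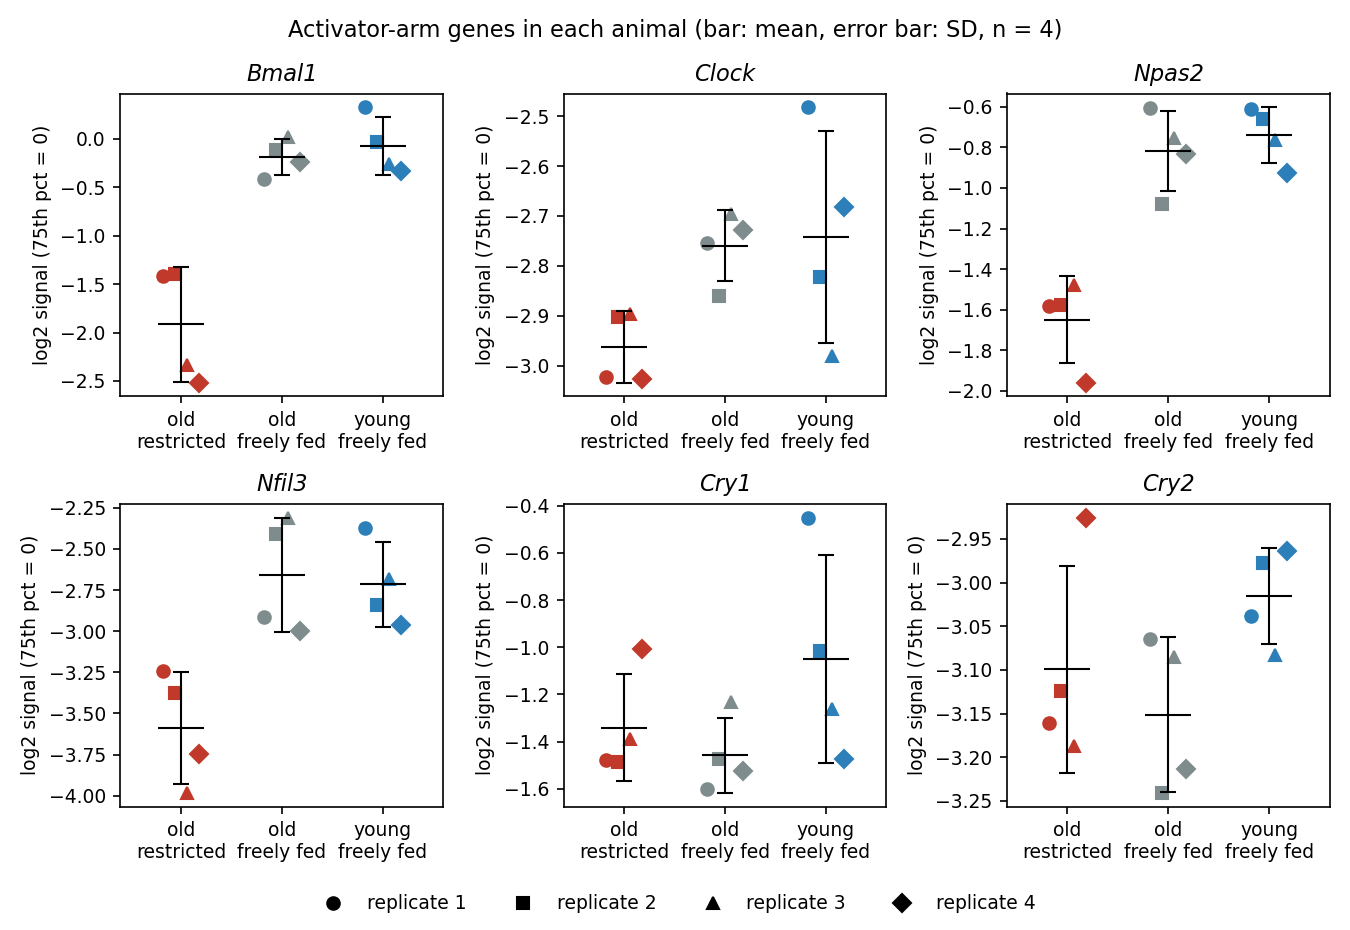
Level of each measured activator-arm gene in each animal, as log2 signal relative to the 75th percentile of the array, in old restricted, old freely fed and young rats. Symbols are animals, the horizontal bar is the mean and the error bar the SD (n = 4). The axes differ between genes. Restricted animals lie below all freely fed animals for Bmal1, Npas2 and Nfil3, while the groups overlap for Cry1 and Cry2.

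Npas2, which can take the place of Clock beside BMAL1, had levels of -1.58, -1.58, -1.48 and -1.96 in restricted animals. It had -0.61, -1.08, -0.75 and -0.83 in old freely fed animals and -0.61, -0.66, -0.76 and -0.92 in young animals. The lowest freely fed animal of the 8 was old freely fed replicate 2, and it was still above every restricted animal. Npas2 averaged -1.65 ± 0.21 in restricted, -0.82 ± 0.20 in old freely fed and -0.74 ± 0.14 in young animals (SD, n = 4 each), and the log2 change with restriction was -0.83 (SE 0.12, 95% interval -1.09 to -0.57, limma adjusted p = 0.00508). The 2 Npas2 probes disagreed. The dimmer one read -3.33, -3.60, -3.82 and -3.46 in restricted animals, -3.31, -3.53, -3.41 and -3.43 in old freely fed animals and -3.15, -3.10, -3.18 and -3.12 in young animals. There restricted and old freely fed animals overlapped, with a log2 change of -0.13 (95% interval -0.34 to 0.07, limma adjusted p = 0.443 in the fit over all probes). With the median of both probes in place of the brighter one, Npas2 changed by -0.48 (limma adjusted p = 0.00999). Which transcripts each probe binds was not tested.

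Nfil3, the D-box repressor, had levels of -3.24, -3.37, -3.98 and -3.75 in restricted animals. It had -2.91, -2.41, -2.31 and -3.00 in old freely fed animals and -2.37, -2.84, -2.68 and -2.96 in young animals. The groups did not overlap, but restricted replicate 1 and old freely fed replicate 4 lay close together. Nfil3 averaged -3.59 ± 0.34 in restricted, -2.66 ± 0.35 in old freely fed and -2.72 ± 0.26 in young animals (SD, n = 4 each), with a log2 change of -0.93 (SE 0.20, 95% interval -1.37 to -0.49, limma adjusted p = 0.0296). This call was lost when old freely fed replicate 2 or 3, or restricted replicate 2, 3 or 4, was left out (adjusted p = 0.0553 to 0.0819), and in a fit to these 2 groups alone (adjusted p = 0.0586). With old freely fed replicate 2 left out, 2 of the 6 members passed the test in place of 3, and the adjusted p of Nfil3 was 0.0716.

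Clock, the usual partner of BMAL1, had levels of -3.02, -2.90, -2.90 and -3.03 in restricted animals, -2.75, -2.86, -2.70 and -2.73 in old freely fed animals, and -2.48, -2.82, -2.98 and -2.68 in young animals. The restricted animals were all below the old freely fed ones, by a small margin, and replicates 1 and 4 were also below every young animal. The log2 change with restriction was -0.20 (95% interval -0.40 to 0.00, limma adjusted p = 0.244), and the dimmer probe gave -0.24 (adjusted p = 0.259). The upper end of the Bmal1 interval, -1.18, lay below the lower end of the Clock interval.

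The cryptochromes, which inhibit the activating pair, moved less. Cry1 had levels of -1.48, -1.49, -1.39 and -1.01 in restricted animals, -1.60, -1.47, -1.23 and -1.53 in old freely fed animals, and -0.45, -1.02, -1.26 and -1.47 in young animals. Cry2 had -3.16, -3.12, -3.19 and -2.93 in restricted animals, -3.06, -3.24, -3.09 and -3.21 in old freely fed animals, and -3.04, -2.98, -3.08 and -2.96 in young animals. Restricted and old freely fed animals overlapped for both genes. The log2 change with restriction was 0.12 for Cry1 (95% interval -0.30 to 0.53, limma adjusted p = 0.761) and 0.05 for Cry2 (95% interval -0.10 to 0.20, limma adjusted p = 0.710). Both intervals contain 0, and that of Cry1 reaches beyond the size of the Clock change in either direction.

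The second comparison set old restricted animals against young ones, and it uses the same restricted arrays as the first. Bmal1, Npas2 and Nfil3 were again the 3 genes that fell, by 3.58-fold, 1.88-fold and 1.83-fold, and 0 of the 6 rose, where 5.99% of all features fell and 3.19% rose. For these 3 genes the groups did not overlap, which was the case for 18.0% of all features. The log2 changes were -1.84 for Bmal1 (SE 0.25, limma adjusted p = 0.00243), -0.91 for Npas2 (SE 0.12, limma adjusted p = 0.00216) and -0.87 for Nfil3 (SE 0.20, limma adjusted p = 0.0236). Leaving out young replicate 1, restricted replicate 3 or restricted replicate 4 ended the call of Nfil3 (adjusted p = 0.0540 to 0.0695). Both further probes passed here: the dimmer Bmal1 probe changed by -1.90 (limma adjusted p = 0.00222) and the dimmer Npas2 probe by -0.41 (limma adjusted p = 0.0214, in the fit over all probes). Clock (-0.22, limma adjusted p = 0.158), Cry1 (-0.29, limma adjusted p = 0.360) and Cry2 (-0.08, limma adjusted p = 0.479) did not pass. The median log2 change of the 6 genes was -0.58, and that of all features was -0.01.

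The third comparison was that of age among freely fed animals. Of the 6 genes, 0 passed the limma test in either direction, against 3.72% of all features, and 0 reached an unadjusted p under 0.05. For 0 of the 6 did the old and young animals fail to overlap, against 15.1% of all features. The log2 change was -0.11 for Bmal1 (95% interval -0.66 to 0.43, limma adjusted p = 0.809), -0.08 for Npas2 (limma adjusted p = 0.719), 0.06 for Nfil3 (limma adjusted p = 0.879) and -0.02 for Clock (limma adjusted p = 0.921). Cry1 had the lowest value, -0.41 (95% interval -0.82 to 0.01, limma adjusted p = 0.207). Its young animals spread from -1.47 to -0.45, and the highest was young replicate 1. Cry2 changed by -0.14 (95% interval -0.29 to 0.02, limma adjusted p = 0.254). The dimmer Npas2 probe was lower in all 4 old animals than in all 4 young ones, with a log2 change of -0.28 that did not pass (limma adjusted p = 0.0966 in the fit over all probes).

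**Figure D2:**
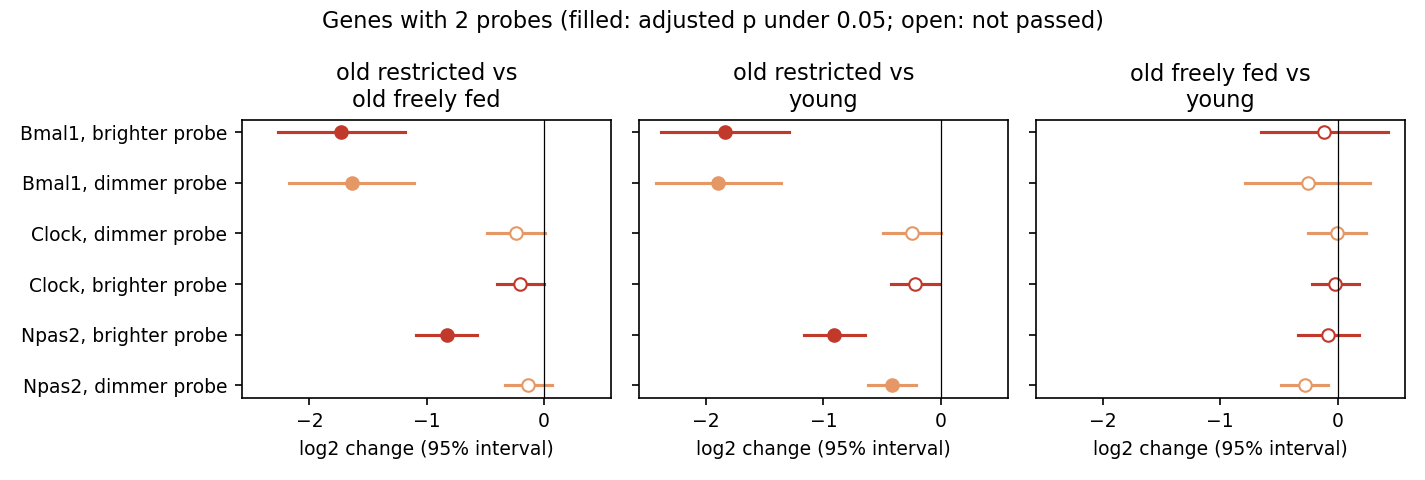
Log2 change, with its 95% interval, of both probes of Bmal1, Clock and Npas2 in the 3 comparisons, from the fit over all probes. Filled points passed an adjusted p of 0.05 and open points did not. The Bmal1 probes lie together, at -1.73 and -1.64 with restriction, while the Npas2 probes lie apart, at -0.83 and -0.13.

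The genes that the activating pair drives, and the output genes beside them, were described from a list of 14 feedback repressors and outputs, of which 12 were tested (Hlf and Bhlhe41 had no probe). With restriction 7 of the 12 were higher and 0 lower, again beside 1.62% and 2.02% of all features, and the median log2 change of the 12 was 0.81. Per1 (0.11, limma adjusted p = 0.688), Usp2 (0.23, limma adjusted p = 0.224) and Noct (0.01, limma adjusted p = 0.974) did not pass. None of them passed against young animals either. Nr1d1 and Bhlhe40, which also did not pass with restriction, are described below. Per2, whose protein inhibits the activating pair with CRY, rose by 1.90 (3.72-fold, limma adjusted p = 0.00247). It had levels of -1.68, -1.21, -0.86 and -0.41 in restricted animals, -2.52, -2.91, -3.16 and -3.15 in old freely fed animals, and -2.71, -2.65, -2.90 and -2.47 in young animals. Dbp, the D-box activator that NFIL3 opposes, rose by 1.95 (limma adjusted p = 0.00602), with levels of 4.01, 4.16, 4.58 and 4.87 in restricted animals, 3.02, 2.32, 2.20 and 2.29 in old freely fed animals, and 1.78, 2.39, 2.86 and 3.11 in young animals. Tef rose by 1.33 (limma adjusted p = 0.00445), Nr1d2 by 1.06 (0.0256), Wee1, a cell cycle kinase under clock control, by 0.57 (0.00982) and Per3 by 0.35 (0.0326), each an adjusted p from limma. The probes of Per3 differed in size, and with their median in place of the brightest probe Per3 rose by 1.10 (limma adjusted p = 0.002). The calls of Nr1d2 and Per3 were lost when any of old freely fed replicates 1, 2 and 3, or of restricted replicates 2 and 4, was left out, and that of Nr1d2 also without restricted replicate 3 and that of Per3 also without old freely fed replicate 4 (adjusted p = 0.0549 to 0.0936). Per2, Dbp and Tef were high in the same animals in which Bmal1, Npas2 and Nfil3 were low.

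Ciart, a repressor of the CLOCK and BMAL1 pair, rose by 2.44 (5.44-fold, limma adjusted p = 0.0142). With normexp background correction it rose by 1.64, and by 1.57 with quantile scaling after it, where Dbp rose by 1.93 and 1.95. It was well above background on all restricted and old freely fed arrays and on 3 of the 4 young arrays. Its window is shown beside that of Bmal1 because it holds the element that BMAL1 binds, and the Bmal1 window does not. It is from RefSeq for GRCr8, chr2:186112197-186112496 on the minus strand, and capitals mark the E-box CACGTG.
Ciart: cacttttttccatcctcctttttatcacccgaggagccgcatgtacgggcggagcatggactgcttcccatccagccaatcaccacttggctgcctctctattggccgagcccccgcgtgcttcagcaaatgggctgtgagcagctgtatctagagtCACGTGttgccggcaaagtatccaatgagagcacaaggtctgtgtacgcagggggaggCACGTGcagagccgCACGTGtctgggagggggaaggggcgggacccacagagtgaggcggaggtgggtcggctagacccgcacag
The 3 matches start 93, 35 and 21 bases before the transcript start. Of 13 windows of 12 genes on the list, 6 held a match: an E-box in those of Ciart, Tef, Bhlhe40, Bhlhe41 and 1 of the 2 Nr1d1 windows, and the D-box spelling TTATGTAA in that of Per2. A match is a description of the letters and shows no binding.

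Nr1d1, which encodes the repressor of Bmal1, had levels of -1.09, -0.96, -1.28 and -1.19 in restricted animals, -2.24, -2.46, -2.54 and -2.28 in old freely fed animals and -3.62, -2.54, -2.11 and -1.28 in young animals. The SD was 0.98 in young, 0.14 in old freely fed and 0.14 in restricted animals, and the fit pools the spread of all 3 groups, the young included. The log2 change of Nr1d1 with restriction was 1.25, with groups that did not overlap, but it did not pass (limma adjusted p = 0.0791). It did pass in 4 of 25 alternatives, which were the fit to these 2 groups alone (adjusted p = 0.00185), array weights (0.00691) and the fits without young replicate 1 (0.0125) or 4 (0.0264). Bhlhe40, which encodes a repressor at E-boxes, changed by 0.47 and did not pass (limma adjusted p = 0.0953), except with array weights (0.0248). Against young animals 9 of the 12 were higher and 0 lower, beside 3.19% and 5.99% of all features: the same 7, Bhlhe40 by 0.63 (limma adjusted p = 0.0227) and Nr1d1 by 1.26 (limma adjusted p = 0.0491). The call of Nr1d1 was lost in 19 of 25 alternative settings. Those of Bhlhe40 and Per3 were lost without young replicate 1, 2 or 3 or restricted replicate 4, that of Bhlhe40 also without restricted replicate 3, and that of Per3 also without old freely fed replicate 3 or restricted replicate 2 (adjusted p = 0.0505 to 0.0861). These losses are for the brightest Per3 probe. With the median of its probes Per3 was 0.92 higher than in young animals (limma adjusted p = 0.0018). With age 0 of the 12 passed in limma, beside 3.72% of all features, and 1 reached an unadjusted p under 0.05.

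**Figure D3:**
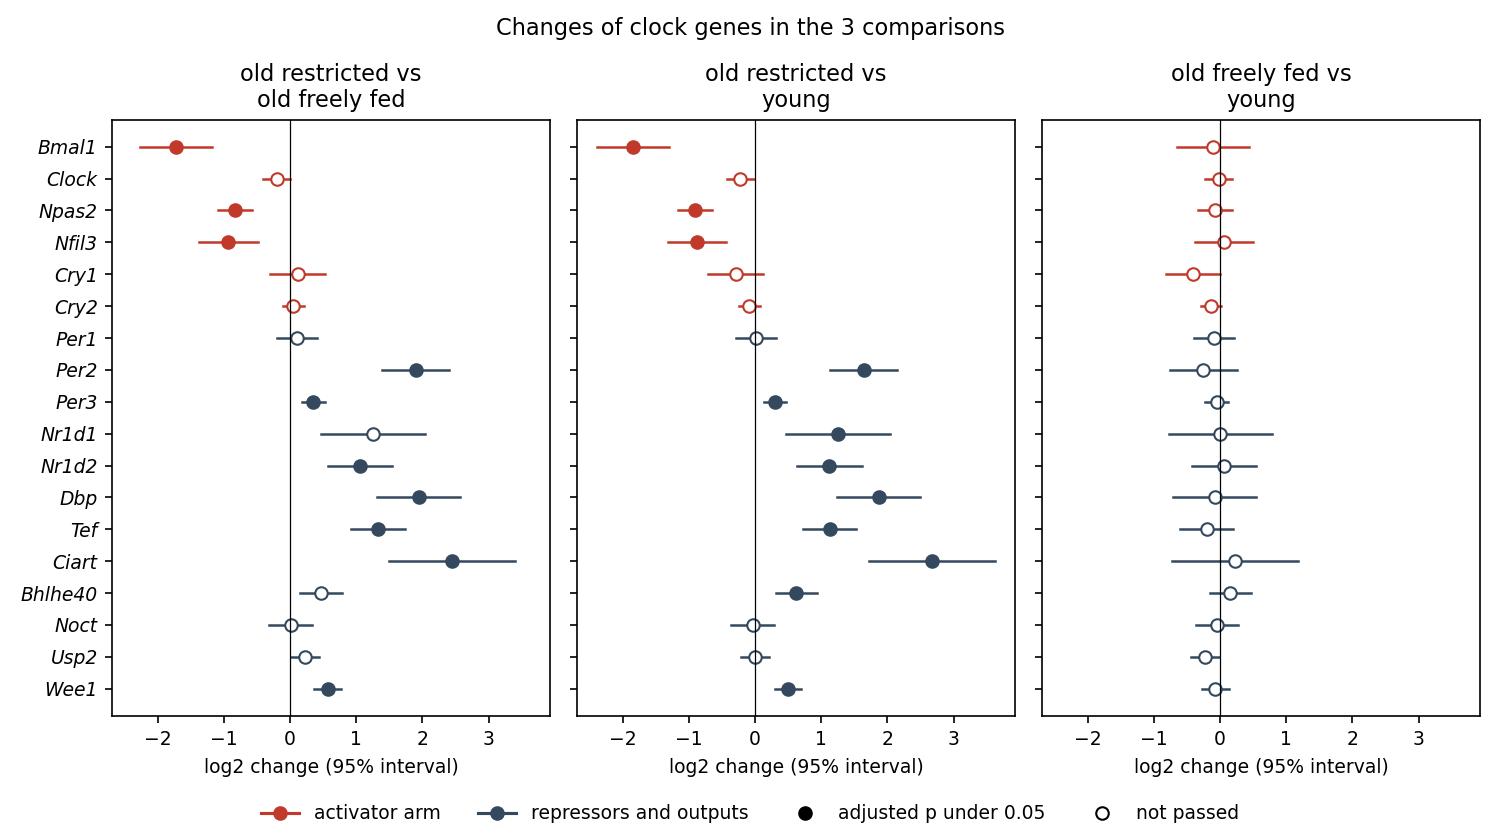
Log2 change, with its 95% interval, of the 6 measured activator-arm genes and of the 12 measured repressors and outputs in the 3 comparisons. Filled points passed an adjusted p of 0.05. Bmal1, Npas2 and Nfil3 have filled points below 0 in both comparisons with restricted animals, where 7 and 9 of the repressors and outputs have filled points above 0, and all points are open for age.

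Other genes around the activators were measured in the same fit. Bmal2, a relative of Bmal1, had a log2 change of -0.40 with restriction that did not pass (limma adjusted p = 0.0570), and its second probe was not well above background on any restricted or young array. Bmal2 passed in 4 of 25 alternatives, among them the fit without restricted replicate 1. Of 13 tested kinases, ligase subunits and other regulators that act on clock proteins, 0 passed with restriction in limma and 2 reached an unadjusted p under 0.05. With 1.62% of all features higher and 2.02% lower, 0 of 13 is near the share over all features. With age 1 of the 13 passed: Timeless was 0.40 higher in old freely fed than in young animals (limma adjusted p = 0.0396), a call that was lost in 14 of 25 alternatives, among them the fits without any 1 of the 4 young animals, old freely fed replicate 1 or 2, or restricted replicate 1, 2 or 4. Of 3 tested coactivators and chromatin partners, 0 passed with restriction, and 1 reached an unadjusted p under 0.05, as many features did. Ppargc1a, a coactivator of ROR proteins, did not pass with restriction (-0.15, limma adjusted p = 0.540), though it was lower in old freely fed than in young animals (-0.68, limma adjusted p = 0.0265), a call that was lost without young replicate 3 or old freely fed replicate 2, in the fit to these 2 groups alone (adjusted p = 0.0775) and with normexp and quantile scaling (-0.39, adjusted p = 0.0736).

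Genes that respond to glucocorticoid hormone or to fasting were measured beside the activators. With restriction 2 of the 9 were higher and 1 lower, beside 1.62% and 2.02% of all features. Fkbp5, a glucocorticoid-induced co-chaperone, rose by 1.24 (limma adjusted p = 0.0319), Tsc22d3, another glucocorticoid target, rose by 0.58 (limma adjusted p = 0.0247), and Angptl4, an inhibitor of lipoprotein lipase, fell by 1.97 on the log2 scale (limma adjusted p = 0.00452). The call of Angptl4 held in all 25 alternatives, while those of Fkbp5 and Tsc22d3 were lost without old freely fed replicate 1, 3 or 4 or restricted replicate 2, and that of Fkbp5 also without restricted replicate 1 or 4. Summed linear signals of the T cell markers were 1.24 to 1.51 in restricted animals, 1.60 to 1.87 in old freely fed animals and 0.964 to 1.26 in young animals, in units of the 75th percentile, with 5 of 5 markers measured, and 1 of them fell with restriction. Those of endothelium were 4.19 to 4.86 in restricted animals, 5.12 to 5.96 in old freely fed animals and 4.59 to 5.37 in young animals, with 4 of 4 markers measured, and 1 of them fell with restriction. Those of smooth muscle were 214 to 252 in restricted animals, 155 to 259 in old freely fed animals and 278 to 293 in young animals, and 0 of 6 passed the test with restriction. Those of adipocytes were 5.43 to 6.15 in restricted animals, 7.37 to 7.54 in old freely fed animals and 4.83 to 7.46 in young animals, with 3 of 4 markers measured, a median log2 change of -2.29 with restriction and 0 past the test. Those of urothelium were 248 to 262 in restricted animals, 213 to 247 in old freely fed animals and 249 to 269 in young animals. Those of nerve were 59.0 to 65.0 in restricted animals, 52.4 to 58.3 in old freely fed animals and 56.0 to 63.7 in young animals, and 0 of 6 urothelial and 0 of 6 nerve markers passed with restriction. The summed signals of T cell, endothelial, adipocyte, urothelial and nerve markers did not overlap between restricted and old freely fed animals. The sums of smooth muscle, fibroblast, macrophage, B and plasma cell, striated muscle, and prostate and seminal vesicle markers did overlap. A sum of linear signals follows the brightest markers of its list most, so it can move less than the median change, as for adipocytes. The part of these genes and cell types in the changes of Bmal1, Npas2 and Nfil3 was not tested.

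Animals of 1 group differed from each other in Bmal1, Nfil3 and Cry1 more than in most features. The SD within groups, pooled over the 3 groups, was 0.398 for Bmal1, 0.318 for Nfil3, 0.301 for Cry1, 0.186 for Npas2, 0.136 for Clock and 0.091 for Cry2, and its median over all features was 0.125. Among restricted animals, replicates 3 and 4 had the lowest Bmal1 and Nfil3 and the highest Dbp and Per2. Among young animals, replicate 1 had the highest Bmal1, Clock, Npas2, Nfil3 and Cry1, the lowest Nr1d1 (-3.62) and Dbp (1.78), and a Ciart level of -7.67 against -6.30 to -5.32 in the other 3. Ciart was well above background on only 3 of the 4 young arrays. Among old freely fed animals, replicate 1 had the lowest Bmal1 and Cry1 and the highest Dbp, Per2 and Tef, but the highest Npas2. These are descriptions of single animals and were given no test.

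**Figure D4:**
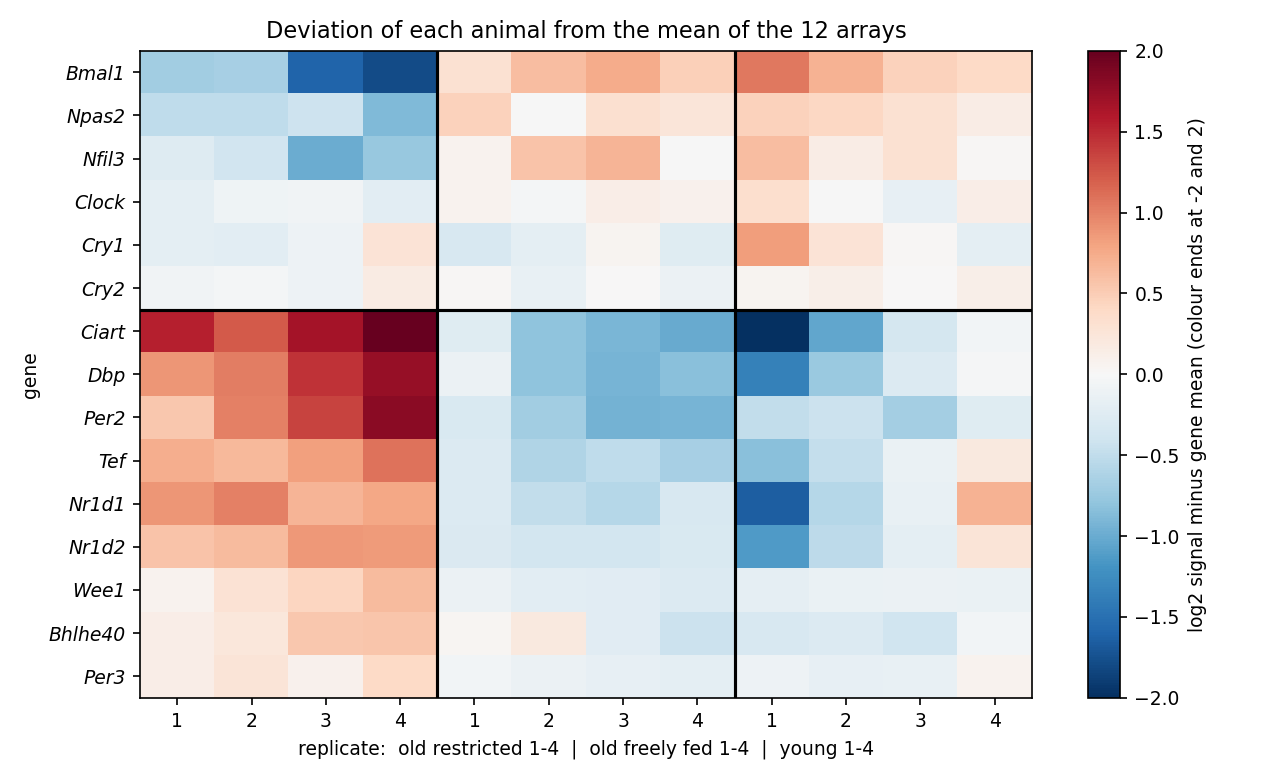
Deviation of each animal, on the log2 scale, from the mean of the 12 arrays, for the 6 measured activator-arm genes (above the horizontal line) and for the repressors and outputs that passed in a comparison (below it). Columns are old restricted, old freely fed and young replicates. Bmal1 is low and Dbp and Per2 are high in all 4 restricted animals, most so in replicates 3 and 4, and young replicate 1 has the highest Bmal1 and the lowest Nr1d1 and Dbp.

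Features with a symbol were ranked by likeness to a member, as the root mean square difference over the 12 arrays between profiles centred on their own means, among 2148 features with an SD of at least 0.3. For Bmal1 the nearest were Spon2 (0.420), Or9s23b (0.424), Or8b12 (0.431) and Fst (0.434), of which Or9s23b and Or8b12 were well above background on 0 of 4 restricted and 1 of 4 young arrays. With the sign turned, the nearest were Dbp (0.241), Per2 (0.274), Tef (0.385) and Aard (0.387), so the closest mirror images of Bmal1 were nearer to it than its closest like profiles. For Npas2 the nearest were Htr5b (0.143, not well above background on any restricted array), Spon2 (0.187), Six2 and Or51b6 (both 0.190). For Nfil3 they were H1f6 (0.237), Edn1 (0.246), Tmprss7 (0.248) and Nkain3 (0.253), and for Cry1 Tfrc (0.171), Fibin (0.181), Pde4dip (0.184) and Ptprt (0.187). These profiles share arrays, slides and groups, and the ranking carries no test.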

How the data were processed

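Total RNA of each bladder was labelled with Cy3 and hybridised to a 1-colour Agilent array, per the labels' protocols. The deposited values are spot intensities, background-subtracted within each array by Agilent Feature Extraction 10.7, per the file headers, and arrays had not been scaled to each other. Array design 028279 and genome build rn4 stand in those headers. The deposited value table of the series equalled these intensities in 100% of spots (relative tolerance 1e-06), on a linear scale with array medians of 473 to 593, and was not used further.

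Processed signals were put on a log2 scale and centred on the 75th percentile of the 58717 non-control spots of each array. That percentile was 4123 to 4697 on restricted, 4646 to 4892 on old freely fed and 3993 to 4837 on young arrays. No spot was saturated, and precision is limited by how many arrays there are. Spots marked as outliers were dropped except where a probe would have been lost (91 probe averages), and spots were averaged over each of 30367 probes. Probe accessions were matched to RefSeq tables of GRCr8, used for symbols and promoter windows, which named 17998 probes. Probes well above background (over 0.5 of their spots) throughout at least 1 group were kept (23090), and the brightest stood for its gene, giving 20426 features.

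Groups came from the labels. Tests used R 4.3 and limma 3.58 (lmFit and eBayes with a brightness trend, two-sided tests, 2.72 prior and 9 residual degrees of freedom), after tests on simulated data. Errors and p-values measure the spread between animals pooled over the 3 groups. Figures used Python 3.11 and matplotlib 3.10. The 3 comparisons share groups, so their values are given side by side. The members, the gene lists, the motifs and the tests were chosen with earlier results of these data known. Named genes were all members with every probe, all tested repressors and outputs, up to 3 glucocorticoid or fasting genes a comparison, and the nearest profiles by the measure given above. Bmal2, Ppargc1a, Timeless and the animals singled out were chosen after their values were seen. Alternatives were other scalings, background corrections, dim-probe filters, probe rules, array weights, a replicate block and fits without 1 animal.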

Additional observations from a re-analysis of the deposited data

Results flagged for a closer look

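The dimmer Clock probe read -4.53 in young replicate 1 and -5.00 to -4.98 in the other 3 young animals, so this animal lay apart from its group. Its gap to the nearest animal was 0.96 of the range of the group, above the 95% critical value of Dixon's test for 4 samples. It was the 1 such case among 27 groups of probe levels, and chance gives about 1 in 20. At that rate 1 case among 27 groups is about what chance alone would give. The same animal had the highest level of its group in the brighter Clock probe and in Bmal1, Npas2, Nfil3 and Cry1.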

How the results depend on the processing

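The calls of Bmal1 and Npas2 held in all 25 alternatives in both comparisons with restricted animals: against old freely fed animals the log2 change of Bmal1 lay between -1.90 and -1.53 (adjusted p up to 0.0376) and that of Npas2 between -0.97 and -0.48 (up to 0.0183). For Npas2 this counts the brighter probe, or the median of both probes. The dimmer Npas2 probe on its own did not pass against old freely fed animals (-0.13, limma adjusted p = 0.443 in the fit over all probes). Nfil3 lost its call in 7 of 25 against old freely fed and 3 of 25 against young animals, without a change of direction; the cause was not tested. Fits with the replicate number as a block called 3 of the 6 members in each of these comparisons and 0 with age, and 7, 8 and 0 of the repressors and outputs, but lost Nr1d1 against young animals (adjusted p = 0.0612), Fkbp5 and Tsc22d3 with restriction, and Timeless with age. The numbers do not pair the animals: same-numbered deviations correlated at -0.19 to 0.0951 in 12 pairs, and 3 of 12 arrays were closest to an array of their own number. Leaving out old freely fed replicates 2 and 4 together, an alternative chosen after the data were seen, left 2 of the 7 calls among repressors and outputs with restriction and ended that of Nfil3 (adjusted p = 0.0866). Changes near 0, none past the test, turned sign: Clock with age was 0.080 with array weights and 0.017 without those 2 animals, where Npas2 with age was 0.061 and Cry2 with restriction -0.024. Ppargc1a with restriction was 0.011 with normexp background correction. Without 1 animal, changes with age ranged from -0.20 to 0.021 for Bmal1, -0.097 to 0.069 for Clock, -0.15 to 0.010 for Npas2 and -0.058 to 0.17 for Nfil3, and Cry2 with restriction from -0.0063 to 0.081. Over all features, calls numbered 239 to 1844 with restriction (744 in the fit reported), 737 to 3259 against young animals (1874) and 94 to 3568 with age (760). Calls with restriction were 331 higher and 413 lower, but 580 and 325 with normexp background correction; those with age were 332 and 428, but 376 and 269 with quantile scaling, 356 and 306 with median centring, and 265 and 197 with normexp and quantile scaling. Normexp was run on spot medians in place of the planned mean signal, a replacement made after the files were seen.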
